A study of Mus musculus with 12 samples.

Results

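The genes described here encode the machinery of oxidative phosphorylation, measured by microarray in resting B (RB) cells of the mouse spleen. They were chosen by gene name. A probe belonged to the group when its name on the array began with Nduf, Uqcr, Atp5, Cox4, Cox5, Cox6, Cox7 or Cox8, or was Sdha, Sdhb, Sdhc, Sdhd, Cyc1 or Cycs. The names took in 124 probes of 92 genes, out of 29270 genes with a RefSeq accession on the array, and the brightest probe stood for each gene. Of these, 88 genes (95.7%) were tested, against 16648 (56.9%) of all genes. The study asked what TLR-2 and CD86 signals, alone and together, do to RB cells. All cells came from spleens of female BALB/c mice aged 6 weeks, were taken by CD43-negative selection and were kept in culture for 4 h. There were 12 arrays, 2 for each of 6 groups. The groups were unstimulated cells, and cells given Pam2CSK4 (a synthetic lipopeptide that activates TLR-2), anti-CD86 antibody, anti-CD86 with Pam2CSK4 (TLR2.CD86), anti-CD40 antibody, or anti-CD40 with Pam2CSK4 (anti-CD40.Pam2CSK4). CD40 is the receptor through which T cells help B cells. The paper speaks of 2 biological replicates, but the labels do not say whether both samples of a group were separate cultures. The p-values thus measure only the spread between these samples, which may also be technical.

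Oxidative phosphorylation takes place in the inner mitochondrial membrane. Complexes I and II pass electrons from NADH and succinate through ubiquinone to complex III, cytochrome c carries them to complex IV, and complex IV hands them to oxygen. Complexes I, III and IV pump protons across the membrane as this happens, and ATP synthase makes ATP from their return. Lymphocytes at rest rely largely on this route, and activated B cells enlarge their mitochondria and raise both respiration and glycolysis. Most subunits are encoded in the nucleus, and their promoters are known for sites of the factors NRF1, GABP (of the ETS family) and YY1.

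The promoters of 4 members are printed first, because each holds the NRF1 motif while the genes themselves behaved differently below. Ndufaf4 was among the members that rose, Ndufa8 and Ndufa11 were among those that fell, and the brightest probe of Sdha passed no test unless slide was a block. Each run gives the 250 bases before the transcription start, 5′ to 3′ on the gene's strand, from RefSeq on GRCm38.p6, with every match to the motif in capitals. The coordinates are chr4:24897833-24898082 on the plus strand for Ndufaf4 and chr2:36049339-36049588 on the minus strand for Ndufa8. They are chr17:56717512-56717761 on the plus strand for Ndufa11 and chr13:74350241-74350490 on the minus strand for Sdha.
Ndufaf4: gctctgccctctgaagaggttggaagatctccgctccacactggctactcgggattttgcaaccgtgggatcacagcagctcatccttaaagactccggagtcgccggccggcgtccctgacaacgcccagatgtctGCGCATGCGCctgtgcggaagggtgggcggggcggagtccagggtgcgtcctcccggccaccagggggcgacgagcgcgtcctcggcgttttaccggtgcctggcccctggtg
Ndufa8: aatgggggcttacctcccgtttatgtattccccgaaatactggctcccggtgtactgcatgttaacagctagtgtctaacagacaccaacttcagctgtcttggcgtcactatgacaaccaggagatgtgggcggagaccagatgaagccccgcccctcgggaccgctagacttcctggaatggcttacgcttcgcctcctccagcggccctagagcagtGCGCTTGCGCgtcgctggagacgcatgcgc
Ndufa11: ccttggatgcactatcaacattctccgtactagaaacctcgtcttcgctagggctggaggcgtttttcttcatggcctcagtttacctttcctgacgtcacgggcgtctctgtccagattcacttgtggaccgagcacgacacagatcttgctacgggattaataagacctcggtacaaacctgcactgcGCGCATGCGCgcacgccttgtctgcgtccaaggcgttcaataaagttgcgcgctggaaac
Sdha: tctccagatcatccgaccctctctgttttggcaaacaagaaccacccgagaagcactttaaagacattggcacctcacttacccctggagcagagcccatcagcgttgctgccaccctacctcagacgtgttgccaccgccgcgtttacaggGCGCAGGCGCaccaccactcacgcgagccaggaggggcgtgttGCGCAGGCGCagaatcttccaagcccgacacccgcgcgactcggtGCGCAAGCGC

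The motif began 113 bases before the start in Ndufaf4, 30 in Ndufa8 and 60 in Ndufa11. Sdha held it 3 times, beginning 98, 55 and 10 bases before the start. Of the 92 members, 74 had a promoter in the table used, with 80 windows in all, each of 250 bases before and 50 after the start. Both strands were searched. The NRF1 motif, which is GCGCA, any base and GCGC, lay in 19 member windows (23.8%), against 4.60% of all 32851 windows and 9.41% of the windows of genes tested on the array. The ETS motif CCGGAAG lay in 17 (21.2%), against 8.86% of all windows and 16.7% of those of tested genes. The YY1 motif AAGATGGC lay in 12 (15.0%), against 2.75% and 4.28%. The E-box CACGTG lay in 9 (11.2%), against 7.15% and 9.76%. The NF-kB motif (GGG, any 2 bases, then TTTCC) lay in 1 (1.25%), against 1.63% of both. These are matches of letters and not sites of binding.

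The arrays held 61307 probes each, of which 46.6% to 60.6% were well above background. They lay on 2 slides. Slide 1 held 8 arrays, including both arrays of unstimulated cells and both of anti-CD40.Pam2CSK4. Slide 2 held replicate 2 of the other 4 groups. Replicate 2 of anti-CD40 stood apart, with the highest share of probes above background and an array median of 5.68 on the log2 intensity scale, against 4.12 to 5.07 on the other arrays. Defining markers of B cells were above background on all arrays for 10 of 10 genes, and their summed level ranged from 8.36 to 8.99 (log2 relative to the array's 75th percentile). All 10 myeloid markers and 9 of 10 T cell markers were also above background on every array. The summed myeloid level was 8.96 to 9.05 in unstimulated cells and 8.46 to 8.65 in TLR2.CD86 cells, and the T cell level was 5.36 to 5.39 and 4.80 to 5.16. Liver markers, with 1 of 7 genes above background on all arrays, summed to 3.81 to 3.84 in unstimulated cells and to -0.73 to -0.37 in anti-CD40.Pam2CSK4 cells, while Fga and Ttr were not above background on any array. The part of other cell types in the results below was not tested, and in such bulk samples fewer cells of a type and less RNA per cell cannot be told apart.

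The array read most nuclear-encoded members, and no probe for a subunit encoded in mitochondrial DNA was found by name, so those subunits of complexes I, III, IV and ATP synthase were not analysed here. Of the 92 members, 87 were above background on all 12 arrays. Cox7b2, Cox8b, Cox8c and Ndufa4l2 were above background on none. Atp5b (the catalytic beta subunit of ATP synthase), Cox6a1 and Uqcrh were saturated on all 12 arrays, so their change could not be read. A further 4 genes were saturated on some arrays. That left 80 genes measured within range on every array. Among the tested members were 16 of ATP synthase, 7 core and 29 accessory subunits of complex I, 4 complex I assembly factors, 4 subunits of complex II, 8 of complex III, 16 of complex IV and Cycs (cytochrome c). The names also took in 3 genes outside the complexes, Cox4nb (Emc8 in RefSeq), Atp5s and Atp5sl (Dmac2 in RefSeq). Atp5l2 is a pseudogene in RefSeq and its probe may share sequence with Atp5l.

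The 80 genes as a group lay lower on every stimulated array than in unstimulated cells. The measure per array was the median over the 80 genes of the log2 difference from the mean of the unstimulated arrays. It was -0.16 and -0.40 for replicates 1 and 2 of Pam2CSK4, with 70 and 79 of 80 genes lower. For anti-CD86 it was -0.35 and -0.51, for TLR2.CD86 -0.33 and -0.61, and for anti-CD40 -0.31 and -0.66. Both anti-CD40.Pam2CSK4 arrays gave -0.17, with 62 and 64 genes lower. The unstimulated arrays themselves lay at -0.01 and 0.01. The same measure over all 13530 genes read within range ran from -0.33 to -0.08 on the stimulated arrays, so the whole array was displaced the same way by less.

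**Figure D1:**
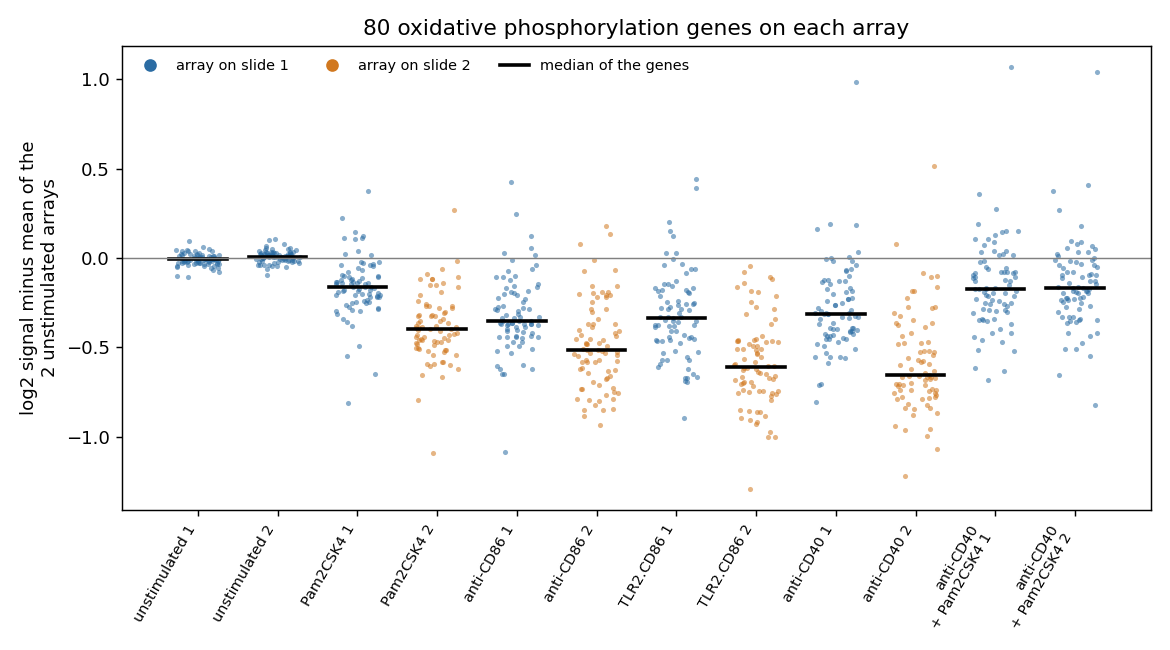
Log2 level of the 80 genes minus the mean of the 2 unstimulated arrays (vertical axis) on each of the 12 arrays (horizontal axis), with 1 point per gene, a black line at the median and colour by slide. All 10 stimulated arrays have medians below 0, from -0.66 to -0.16, and the arrays on slide 2 have the lower median of their group.

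These genes also differed between the slides, where slide cannot be told apart from the second sample of a group. Within a group, replicate 2 on slide 2 lay below replicate 1 on slide 1 by a median of -0.26 for Pam2CSK4, -0.19 for anti-CD86, -0.30 for TLR2.CD86 and -0.32 for anti-CD40 (log2). With slide as a term in limma, 65 of the 80 genes were called lower on slide 2 and 1 higher, at a median of -0.28 against -0.13 over all probes tested, of which 39.3% were called lower and 17.9% higher. Unstimulated and anti-CD40.Pam2CSK4 cells had no array there, so counts for the members as a whole are also given with slide as a block. A gene was called at a Benjamini-Hochberg adjusted p under 0.05 in limma, over all 31602 probes tested.

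Against unstimulated cells, TLR2.CD86 cells had lower levels of many subunits, and 9 of the 18 that passed were accessory subunits of complex I. Of 84 members that could be counted, 18 fell and 1 rose (limma), where 11.1% of all genes fell and 1.87% rose. The median log2 fold change was -0.46, against -0.19 over all genes, and 96.4% of members lay below 0, against 66.5%. Blocking on slide, limma called 61 members, 3 of them higher, where 41.0% of all genes were called, and the median became -0.33 against -0.13. The 19 genes called without the block were all called with it, in the same direction. The count without the block rests on single arrays. It became 5 without TLR2.CD86 replicate 1, 1 without TLR2.CD86 replicate 2, and 1 without either unstimulated array.

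Accessory subunits of complex I surround its catalytic core and are needed to assemble it. All 28 that could be counted lay below 0 in TLR2.CD86 cells, at a median of -0.57, and 9 fell. Ndufa13, also known as GRIM-19, read 6.70 and 6.72 on the unstimulated arrays and 6.03 and 5.73 after TLR2.CD86 (log2 relative to the 75th percentile). Its log2 fold change was -0.82 (SE 0.18, limma adjusted p = 0.0292). Ndufb9 went from 6.13 and 6.10 to 5.45 and 5.18, a change of -0.80 (SE 0.17, limma adjusted p = 0.0293). Ndufb2 went from 4.53 and 4.46 to 3.81 and 3.59, also -0.80 (SE 0.16, limma adjusted p = 0.0259). In each of the 3 genes both TLR2.CD86 arrays lay below both unstimulated arrays, and the array on slide 2 was the lower of the pair. Ndufa8, whose promoter is printed above, was steadier between slides, with 4.50 and 4.52 in unstimulated cells and 3.86 and 3.91 in TLR2.CD86 cells. Its log2 fold change was -0.62 (SE 0.11, limma adjusted p = 0.0166), and its second probe gave -0.54. Ndufa7 (-0.61), Ndufc1 (-0.61), Ndufc2 (-0.61) and Ndufb5 (-0.66) fell by similar amounts, with limma adjusted p from 0.0243 to 0.0435.

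Complex IV had a like share called, with 4 members that fell and 1 that rose (33.3% of 15, against 32.1% of the accessory subunits). The rise was that of Cox4i2, which was not above background in unstimulated cells, so its call is no support of its own. Ndufa4, named for complex I but now assigned to complex IV, read 5.28 and 5.22 in unstimulated and 4.58 and 4.63 in TLR2.CD86 cells, a change of -0.65 (SE 0.10, limma adjusted p = 0.0149). Cox6c fell by 0.52 on the log2 scale (limma adjusted p = 0.0292). Uqcrfs1, the Rieske iron-sulfur protein of complex III, read 5.39 and 5.52, then 4.99 and 4.99, and changed by -0.46 (SE 0.11, limma adjusted p = 0.0341). The arrays of both groups did not overlap in any of these 3 genes. ATP synthase had 15 of 15 members below 0 at a median of -0.45, and 1 of them fell, which was Atp5l2. The other members that fell were Ndufv3, Ndufs7, Uqcr and Atp5s, by -0.72 to -0.62. For Ndufv3 this holds for the brightest probe only. Both of its other probes gave 0.21, so the probes of this gene disagreed.

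**Figure D2:**
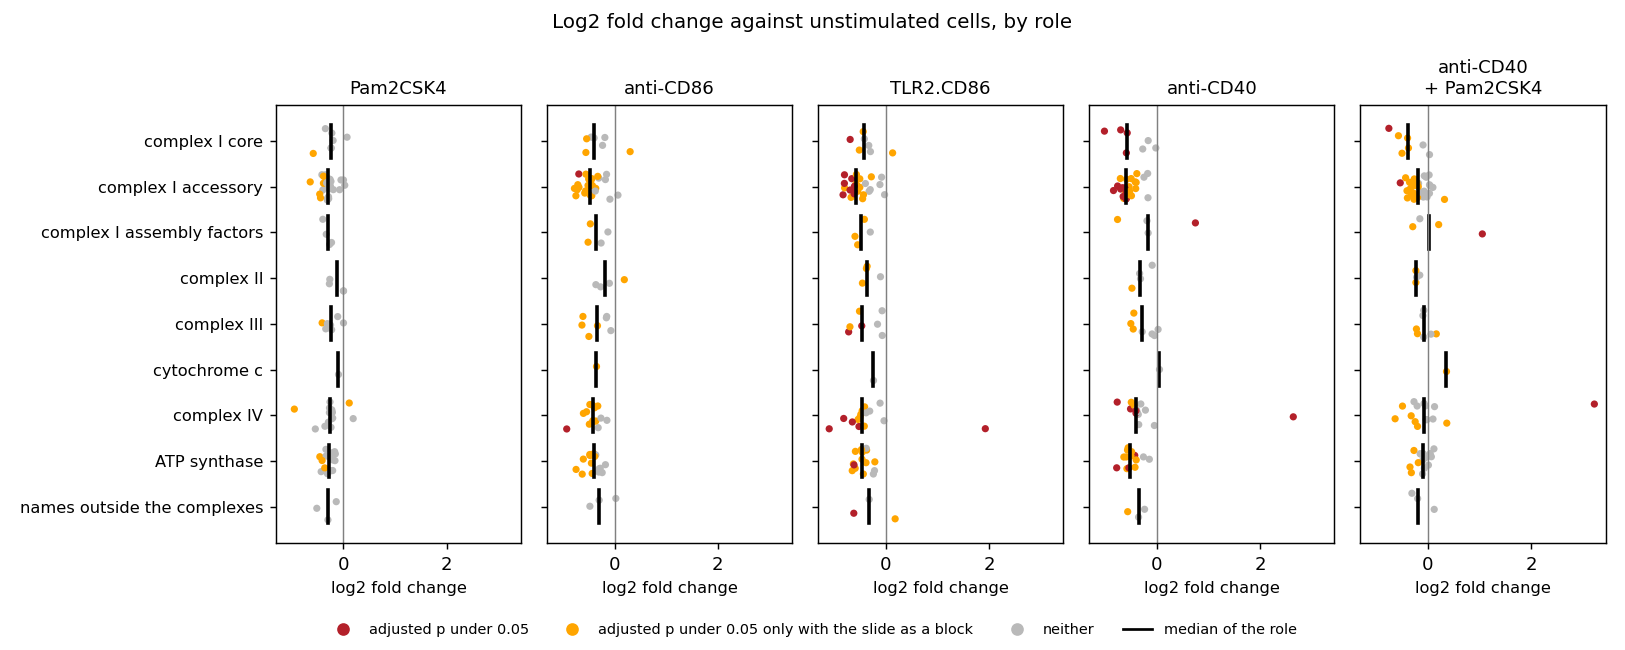
Log2 fold change of each counted member against unstimulated cells (horizontal axis) by role (vertical axis), in 1 panel per stimulation, with black lines at the median of the role. Red points were called, orange points were called only with slide as a block and grey points neither. The complex I accessory subunits lie wholly below 0 with TLR2.CD86 and with anti-CD40, and the red points farthest to the right in the last 3 panels are Cox4i2, whose fitted change is no bound.

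Among the members called with TLR2.CD86, a muscle-type isoform of complex IV had the largest fall and a lung-type isoform the only rise. Cox6a2, the heart and skeletal muscle form of subunit VIa, read 1.85 and 1.89 on the unstimulated arrays, 1.06 and 0.78 with Pam2CSK4, and 0.98 and 0.58 with TLR2.CD86. With anti-CD40 it read 1.74 and 1.29, the closest group to unstimulated cells by its mean. The TLR2.CD86 change was -1.09 (SE 0.21, limma adjusted p = 0.0224) and the Pam2CSK4 change -0.95 (limma adjusted p = 0.127 without the block). The Pam2CSK4 change was called once slide was a block, at -0.77. Its partner isoform Cox6a1 was saturated throughout. Cox7a1, the muscle form of subunit VIIa, read -1.50 and -1.34 in unstimulated cells and -2.51 and -2.19 with anti-CD86. It fell with anti-CD86 (-0.93, SE 0.17, limma adjusted p = 0.0437), with TLR2.CD86 (-0.81) and with anti-CD40 (-0.77). With anti-CD40.Pam2CSK4 it read -1.70 and -1.55, a change of -0.21 (limma adjusted p = 0.46). Of 10 skeletal or heart muscle markers on the array, 4 were above background on all 12 arrays and 2, Ckm and Mb, on none.

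Cox4i2, the isoform of subunit IV known from lung and from cells short of oxygen, moved the other way. Its probe was not well above background on any unstimulated, Pam2CSK4 or anti-CD86 array. It read -3.36 on both TLR2.CD86 arrays, -2.49 and -2.80 with anti-CD40, and -2.05 and -2.09 with anti-CD40.Pam2CSK4. Since the unstimulated group gives only a bound, the TLR2.CD86 level is given as at least 1.34-fold higher. Anti-CD40 gave a level at least 2.21-fold higher and anti-CD40.Pam2CSK4 one at least 3.30-fold higher. TLR2.CD86 stood at least 1.60-fold above anti-CD86 alone. The gene passed the filter only through the groups in which it was above background. Its calls against the dim groups, which are counted among the rises of members, are therefore no support of their own, and no p-value is given for them. The common isoform Cox4i1, saturated on 1 array, read 7.57 and 7.58 in unstimulated cells and between 6.93 and 7.71 on the other arrays, and passed in no comparison without the block. The bound is each array's lowest signal among probes well above background, or the probe's own signal where that was higher.

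The other isoforms of complex IV were flatter. Cox6b1 read 1.27 and 1.25 in unstimulated cells and 1.62 and 1.64 with anti-CD40.Pam2CSK4, which was called only when slide was a block (0.37). Cox6b2 ranged from -0.29 to 0.26 over the 12 arrays, with the Pam2CSK4 arrays (0.10 and 0.26) highest, and was called in no comparison without the block. Cox7a2l and Cox8a passed no comparison without the block. Cox7a2, the common form of subunit VIIa, fell with anti-CD40 by 0.51 on the log2 scale (SE 0.11, limma adjusted p = 0.0205), from 5.49 and 5.50 to 5.08 and 4.90.

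Anti-CD40 alone gave lower levels of many members and higher levels of Ndufaf4 and Cox4i2. Of 83 that could be counted 22 fell and 2 rose, where 15.5% of all genes fell and 4.91% rose (limma). The median was -0.46 against -0.18 over all genes, and the accessory subunits of complex I again had 28 of 28 below 0, at a median of -0.59, with 11 that fell. A fit blocked by slide called 56 members, 2 of them higher, where 44.6% of all genes were called. Without replicate 2, the array that stood apart, 3 members were called, and without replicate 1, 43 were. Without either unstimulated array 1 was called.

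Ndufs8, a core subunit of complex I that holds iron-sulfur clusters, read 1.99 and 2.02 in unstimulated cells and 1.20 and 0.78 with anti-CD40. Its change was -1.01 (SE 0.18, limma adjusted p = 0.0123), and with anti-CD40.Pam2CSK4 it read 1.32 and 1.18, a change of -0.75 (SE 0.18, limma adjusted p = 0.0257). TLR2.CD86 arrays, at 1.80 and 1.37, also lay below the unstimulated ones, but that change of -0.41 did not pass (limma adjusted p = 0.173). Core subunits as a group had 4 that fell with anti-CD40 at a median of -0.57. Among accessory subunits, Ndufa11 read 0.11 and -0.01, then -0.66 and -0.91, a change of -0.84 (SE 0.19, limma adjusted p = 0.023). Ndufa3 went from 3.87 and 3.97 to 3.37 and 2.96 (-0.76, SE 0.20, limma adjusted p = 0.039). Ndufa8 fell by nearly the same amount as with TLR2.CD86, at -0.61 (SE 0.11, limma adjusted p = 0.0106), and its second probe gave -0.42.

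ATP synthase had 3 members that fell with anti-CD40. Atp5g1, a gene for the c subunit of the membrane ring, read 4.43 and 4.35 in unstimulated cells and 3.83 and 3.39 with anti-CD40. Its change was -0.78 (SE 0.21, limma adjusted p = 0.039). Of the like-named and brighter genes, Atp5g2 changed by -0.58 and did not pass (limma adjusted p = 0.113). Atp5g3, saturated on 6 arrays, had means of 7.75 in unstimulated and 7.67 in anti-CD40 cells. Atp5c1, the gamma subunit of the rotor shaft, went from 7.33 and 7.44 to 7.05 and 6.86 (-0.43, SE 0.12, limma adjusted p = 0.0499). The other was Atp5l2. No complex III gene was called, and the median there was -0.28.

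One gene of complex I assembly went against the rest. Ndufaf4, which helps to build the arm of complex I that faces the matrix, read 3.33 and 3.38 in unstimulated cells and stayed between 2.89 and 3.28 with Pam2CSK4, anti-CD86 and TLR2.CD86. It read 4.34 and 3.87 with anti-CD40, and 4.42 and 4.40 with anti-CD40.Pam2CSK4. All 4 arrays given anti-CD40 lay above the other 8. The changes were 0.75 (SE 0.19, limma adjusted p = 0.0367) and 1.06 (SE 0.19, limma adjusted p = 0.00845), and 0.91 for anti-CD40 when blocked by slide. A second probe gave 0.64 and 1.24, and the remaining probe was above background on only 3 arrays. The related assembly factor Ndufaf2 read 1.19 and 1.23 in unstimulated cells, 1.20 and 0.88 with anti-CD40 and 1.36 and 1.48 with anti-CD40.Pam2CSK4, and was not called against unstimulated cells without the block.

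**Figure D3:**
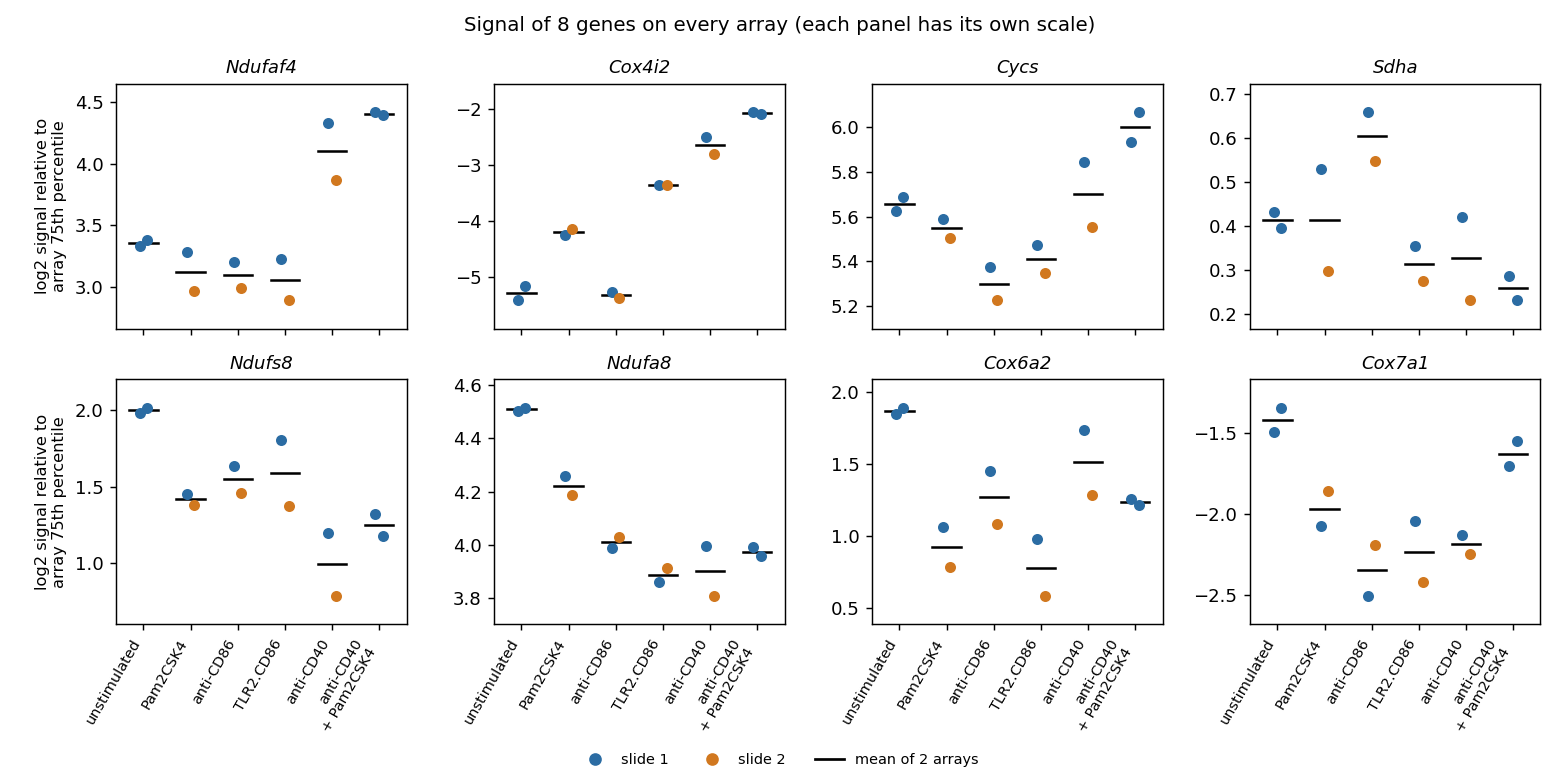
Level of 8 genes (vertical axis, log2 relative to the array's 75th percentile, each panel with its own scale) by group (horizontal axis), with 1 point per array coloured by slide and a line at the mean of 2 arrays. Ndufaf4 lies higher on the 4 arrays given anti-CD40 than on the other 8. Ndufa8 lies lower on every stimulated array than on the unstimulated ones. Sdha, by its brightest probe, lies highest on the anti-CD86 arrays, while its second probe, not shown, lies below the unstimulated arrays there. Cox4i2 is not well above background in the unstimulated, Pam2CSK4 and anti-CD86 groups.

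Each single signal through CD86 or TLR-2 gave few calls. With anti-CD86, Cox7a1 and Ndufb5 fell and no member rose among 83, where 1.67% of all genes fell and 0.493% rose (limma). Ndufb5 read 1.31 and 1.26 in unstimulated cells and 0.64 and 0.55 with anti-CD86, a change of -0.69 (SE 0.13, limma adjusted p = 0.0464). The median over members was -0.43, against -0.14 over all genes, and 47 members (56.6%) had an unadjusted p under 0.05, against 26.8% of all genes. Blocking on slide gave 53 calls, 2 of them higher, where 32.5% of all genes were. Leaving out any array of either group gave 0 calls without the block. With Pam2CSK4, limma called 0 of 83 members, where 0.108% of all genes rose and 0.051% fell. The unadjusted p was under 0.05 for 13 members (15.7%), all lower, against 17.7% of all genes, and the median was -0.27 against -0.16. The slide-blocked fit called 13, 1 of them higher, where 13.0% of all genes were, and its median was -0.15 against -0.09.

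With anti-CD40 and Pam2CSK4 given together few members passed. Of 85 members, Ndufs8 and Ndufa8 fell and Ndufaf4 and Cox4i2 rose, where 13.8% of all genes fell and 7.84% rose (limma). Ndufa8 read 3.99 and 3.96, a change of -0.53 (SE 0.11, limma adjusted p = 0.0111). The median was -0.15 against -0.11 over all genes, the nearest to 0 of the 5 stimulations without the block and level with Pam2CSK4 with it, and 75.3% of members lay below 0, against 59.4%. Leaving out any array of either group left 1 call. All 4 arrays of this comparison lay on slide 1. Blocking on slide made the spread smaller, and 42 members were called, 7 higher, where 52.0% of all genes were. The medians of ATP synthase (-0.09), complex III (-0.08) and complex IV (-0.07) lay nearer to 0 than that of the complex I core (-0.39).

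Set against TLR2.CD86 cells directly, 7 of 85 members were higher and 0 lower in anti-CD40.Pam2CSK4 cells (limma), where 8.97% of all genes were higher and 4.87% lower, so the share of members called higher was near that of all genes. The unadjusted p was under 0.05 for 32 members (37.6%), all higher, against 30.6% of all genes. The median was 0.34 against 0.08 over all genes, and 0.20 against 0.04 when blocked by slide. Ndufaf4 differed by 1.35 (SE 0.19, limma adjusted p = 0.00496), Cox4i2 by 1.30 (SE 0.14, limma adjusted p = 0.00173) and Ndufaf2 by 0.75 (SE 0.17, limma adjusted p = 0.0258). Ndufb2 read 4.37 and 4.33, against 3.81 and 3.59, a difference of 0.65 (SE 0.16, limma adjusted p = 0.0371). Ndufa7 (0.54) and Ndufa4 (0.45) were also higher, with limma adjusted p of 0.0252 and 0.0287. The slide-blocked fit called 43 members, 39 of them higher, where 38.4% of all genes were. Without one array at a time the count was 2 to 5, with 5 without TLR2.CD86 replicate 1 and 2 without any of the other 3. The complex I core had a median of 0.01 in this comparison, and with the block none of its 7 members was higher and 2 were lower, Ndufs8 among them. Complex II also had none higher with the block.

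Cycs was the seventh gene. Cytochrome c shuttles electrons between complexes III and IV and, once released from mitochondria, starts the caspase cascade. It read 5.63 and 5.69 in unstimulated cells, 5.47 and 5.35 with TLR2.CD86, 5.85 and 5.56 with anti-CD40, and 5.93 and 6.07 with anti-CD40.Pam2CSK4. The difference between anti-CD40.Pam2CSK4 and TLR2.CD86 was 0.59 (SE 0.13, limma adjusted p = 0.0251), while the change from unstimulated cells, 0.34, did not pass without the block (limma adjusted p = 0.113). The other 2 probes gave 0.11 and 0.15 for anti-CD40.Pam2CSK4, and -0.61 and -0.53 for TLR2.CD86, against unstimulated cells.

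An interaction asks whether both signals together differ from the sum of their single effects on the log2 scale. For anti-CD40 and Pam2CSK4, limma called 0 of 85 members, where 0.892% of all genes were called. The unadjusted p was under 0.05 for 49 members (57.6%), 48 of them above 0, against 20.6% of all genes, and the median was 0.58 against 0.24 over all genes. Anti-CD40 and Pam2CSK4 each had replicate 2 on slide 2, where members read lower, while the other groups of this interaction lay on slide 1. The value without the block therefore cannot be told apart from this layout. Once slide was a block, 20 members were called, all above 0, where 8.6% of all genes were, at a median of 0.32 against 0.09. Ndufb2 had an interaction of 0.94 without the block (limma adjusted p = 0.112) and 0.68 with it. For anti-CD86 and Pam2CSK4, limma called 0 of 84 members both without and with the block, where 0.00629% and 0.164% of all genes were called. There the unadjusted p was under 0.05 for 4 members (4.76%) without the block and 17 (20.2%) with it, against 3.87% and 16.9% of all genes. The median was 0.25 against 0.09 without the block and 0.12 against 0.03 with it. TLR2.CD86, anti-CD86 and Pam2CSK4 each had replicate 2 on slide 2, while unstimulated cells had no array there. The value without the block therefore cannot be told apart from the layout here either.

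Adding anti-CD86 to Pam2CSK4 was compared on both slides separately. Between TLR2.CD86 and Pam2CSK4 limma called 0 of 84 members, where 0.0379% of all genes were called, and 7 (8.33%) had an unadjusted p under 0.05, against 9.71% of all genes. The slide-blocked fit called 23 members, 22 lower and Cox4i2 higher, where 11.7% of all genes were, and 12 of the 22 were accessory subunits of complex I. Within slide 1 the median over the 80 genes was -0.17 (log2), with 70 lower, and within slide 2 it was -0.21, with 76 lower. Over all genes it was -0.06 and -0.07. The slides share no array, and 68 of the 80 genes were lower on both, while Cyc1 and Atp5sl were higher on both. The share of all genes lower on both slides was not counted. Levels below Pam2CSK4 were not particular to TLR2.CD86. Anti-CD40 minus Pam2CSK4 gave -0.15 and -0.21 (-0.06 and -0.08 over all genes), with 61 genes lower and 12 higher on both slides. Anti-CD86 minus Pam2CSK4 gave -0.17 and -0.10 (-0.04 and 0.03 over all genes), with 61 lower and 7 higher on both. Between TLR2.CD86 and anti-CD86 the medians were 0.01 and -0.10, with 37 and 68 genes lower. Limma called 1 of 84 members there, Cox4i2, where 0.214% of all genes were called, and 5 when blocked by slide, where 7.82% of all genes were. Cox4i2 passed the filter only through groups in which it was above background. Its calls against Pam2CSK4 and against anti-CD86 are therefore no support of their own. Anti-CD40 against TLR2.CD86 gave 0.02 and -0.00 within the slides, with 29 genes lower and 34 higher on both.

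**Figure D4:**
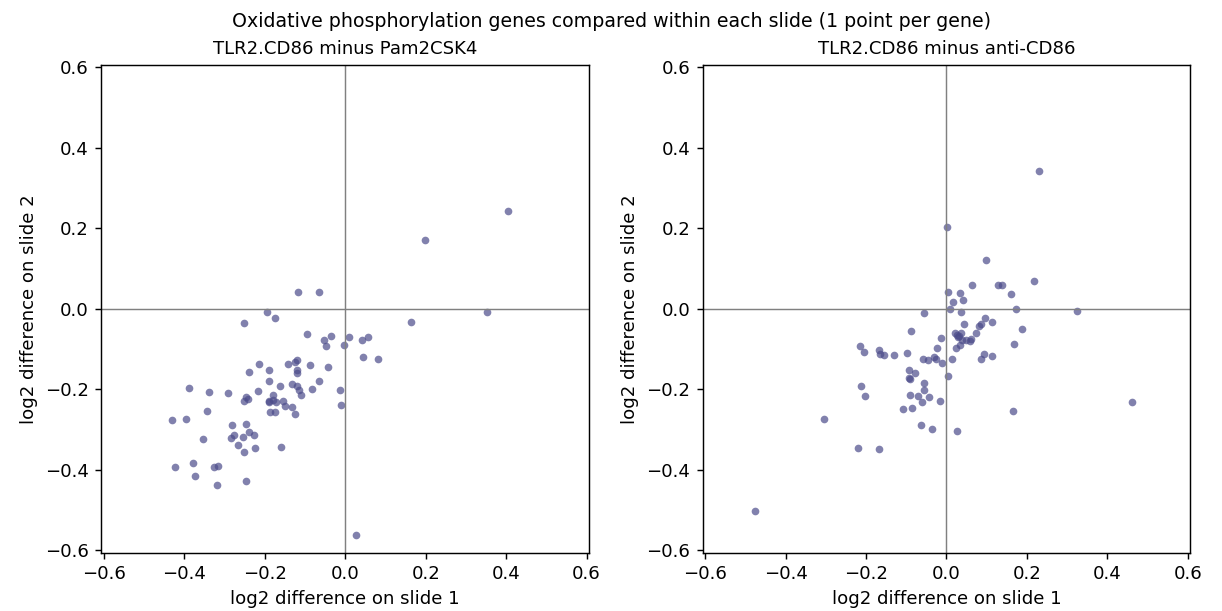
Log2 difference within slide 1 (horizontal axis) against the same difference within slide 2 (vertical axis) for the 80 genes, with one array of each group per slide and points as genes. For TLR2.CD86 minus Pam2CSK4, 68 of the 80 genes lie below 0 on both slides, and for TLR2.CD86 minus anti-CD86, 37 do.

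Complex II, the one electron transport complex that pumps no protons and also an enzyme of the citric acid cycle, had no member called without the block, while with it 3 of 4 were called lower with TLR2.CD86. Sdha, the flavoprotein that binds succinate, read 0.43 and 0.40 in unstimulated cells, and its 5 changes ran from -0.16 to 0.19. Its second probe gave -0.72 for TLR2.CD86 and -0.35 to -0.50 for the other stimulations, so the probes of this gene disagreed. Sdhb, the iron-sulfur subunit, read 3.10 and 3.11 in unstimulated cells and 2.46 to 2.93 on the stimulated arrays. The membrane anchors read 1.04 and 1.06 (Sdhc) and 4.84 and 4.90 (Sdhd) in unstimulated cells, with 0.87 and 0.51, and 4.43 and 4.41, after TLR2.CD86. Sdhb and Sdhd thus lay lower on every stimulated array than on both unstimulated ones, as did Sdhc except for overlap with Pam2CSK4. The brightest probe of Sdha lay above the unstimulated arrays with anti-CD86, below them with TLR2.CD86 and anti-CD40.Pam2CSK4, and overlapped with them in the other 2 groups. Cyc1, the cytochrome c1 heme protein of complex III, read 4.26 and 4.27 in unstimulated cells and 4.41 and 3.98 with TLR2.CD86, and was not called in any comparison without the block. Among the 25 genes with several tested probes, 2 to 6 had probes of opposite sign in a given comparison with unstimulated cells.

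Genes around the machinery are read against the shares of all genes that fell, which were 11.1% with TLR2.CD86, 15.5% with anti-CD40 and 13.8% with anti-CD40.Pam2CSK4. Of 22 assembly factors not covered by the names above, 6 fell with TLR2.CD86 and 3 with anti-CD40 (limma), the latter a share near that of all genes. These 3 were Ecsit (-0.85), Nubpl (-0.92) and Tmem126b (-0.70), all of complex I assembly. With anti-CD40.Pam2CSK4, 4 fell and Sdhaf1 rose (0.62). Of 18 genes of pyruvate dehydrogenase and the citric acid cycle, 4 fell with TLR2.CD86, which were Suclg2 (-0.94), Dlat (-0.70), Idh3a (-0.63) and Fh1 (-0.51). With anti-CD40 5 fell, which included Cs (-0.65), the citrate synthase, and Fh1 (-0.85), the fumarase. Of 18 mitochondrial carriers and import pores, 6 fell with TLR2.CD86, 2 with anti-CD40, and with anti-CD40.Pam2CSK4 2 fell while Slc25a1 (0.53), Timm23 (0.62) and Tomm20 (0.56) rose. Both counts of 2 are near the shares of all genes. Of 14 tested regulators of mitochondrial genes, 2 fell and 1 rose with anti-CD40, and 2 fell and 0 rose with TLR2.CD86. With anti-CD40.Pam2CSK4, 1 fell and 3 rose. Of all genes, 4.91% rose with anti-CD40 and 7.84% with anti-CD40.Pam2CSK4. The counts of regulators that fell are near or below the shares of all genes. Ppargc1a, the coactivator PGC-1alpha, fell with anti-CD40 (-1.42) and with anti-CD40.Pam2CSK4 (-1.25). Gabpb1, a subunit of GABP, rose in both (0.76 and 0.86), and Nrf1 (0.50) and Pprc1 (0.63) rose with anti-CD40.Pam2CSK4. With TLR2.CD86, Gabpa (-0.58) and Tfb1m (-0.69) fell. No gene of these 4 lists was called with Pam2CSK4 alone, where their medians ran from -0.25 to -0.18 against -0.16 over all genes. When blocked by slide, Pam2CSK4 gave 5 calls among the assembly factors, 5 among carriers and pores, 1 in the citric acid cycle list and 2 among regulators. For TLR2.CD86 the block gave 12 lower and 1 higher, 9 and 3, 9 and 2, and 3 and 4 in the same order. For anti-CD86 the block gave 10 lower and 2 higher among assembly factors, 9 and 3 among carriers and pores, and 4 and 2 in the citric acid cycle list. Without it, 2 assembly factors and 1 citric acid cycle gene fell, where 1.67% of all genes fell. The medians of these lists without the block were -0.38, -0.34 and -0.28, against -0.14 over all genes. Among regulators the block gave 6 higher and 2 lower, where none was called without it. Among all genes the blocked fit called 13.0% with Pam2CSK4, 41.0% with TLR2.CD86 and 32.5% with anti-CD86.

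The choice of scaling moved the whole array. Scaled to each array's median instead of its 75th percentile, the median of all genes was -0.75 for anti-CD40 and -0.48 for TLR2.CD86 against unstimulated cells, and 1 and 0 members were called, the 1 being higher. Under every scaling and background correction tried, the median over members lay below that over all genes in each of the 5 stimulations.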

How the data were processed

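RNA of resting B cells was labelled with Cy3 by the authors and hybridised to custom 1-colour mouse arrays, which were read by Agilent's Feature Extraction software. Its output, as deposited, gives for each spot an intensity after background correction. The authors also deposited a log2 value table, which on each array equals the log2 intensity minus a constant near the 75th percentile (column medians -3.94 to -2.80), and it served as an alternative. Control and outlier spots were left out, spots of a probe were averaged, and log2 intensity minus each array's 75th percentile was used. Probes well above background on all arrays of at least 1 group were tested.

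Groups of 2 arrays were fitted together over all 12 arrays with limma 3.58.1 in R 4.3.3 (lmFit and eBayes, two-sided), with Benjamini-Hochberg adjustment over all probes tested and a threshold of 0.05. Lists were joined and plotted in Python 3.11.15, pandas 2.3.3, numpy 2.4.6 and matplotlib 3.10.9. Genes below background, or saturated, in both groups were not counted. The fit was tested on simulated data. The number of arrays limits the precision. Alternatives were median and quantile scaling, normexp with an offset of 50, no filter on dim probes, slide as a block, slide 1 alone, replicate number as a block, ordinary standard errors, averaged or unsaturated probes, and leaving out each array.

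Named were, for each comparison, the 5 highest and 5 lowest called members that were within range and did not overlap between groups. To these came complex II, Cyc1, Cycs and the complex IV isoforms whatever their values, and other names were chosen after their values were seen. The members and lists were chosen with earlier results of these data known. Gene positions come from RefSeq (GRCm38.p6). The files' coordinates, on mm9, were not used.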

Additional observations from a re-analysis of the deposited data

How the results depend on the processing

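No median over members against unstimulated cells, and none of the 35 called results of named genes, changed direction under any alternative tried. Among named genes not called some turned sign, such as Sdha with Pam2CSK4 (-0.00, and 0.08 when slide was a block) and Cyc1 with TLR2.CD86 (-0.07 and 0.15). Counts of called members moved more. Blocking on slide gave 13 (Pam2CSK4), 53 (anti-CD86), 61 (TLR2.CD86), 56 (anti-CD40) and 42 (anti-CD40.Pam2CSK4) against unstimulated cells, 23 for TLR2.CD86 against Pam2CSK4, 5 against anti-CD86, 43 for anti-CD40.Pam2CSK4 against TLR2.CD86 and 20 for the interaction of anti-CD40 and Pam2CSK4. Slide 1 alone gave 0 (anti-CD86), 37 (TLR2.CD86), 31 (anti-CD40.Pam2CSK4), 0 (TLR2.CD86 against anti-CD86) and 17 (anti-CD40.Pam2CSK4 against TLR2.CD86). There each group but 2 has 1 array, which is assumed to vary like those of the other groups.

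With median scaling the counts were 0 (anti-CD86), 0 (TLR2.CD86), 1 (anti-CD40), 1 (anti-CD40.Pam2CSK4), 0 (TLR2.CD86 against anti-CD86) and 0 (anti-CD40.Pam2CSK4 against TLR2.CD86), and the medians -0.47 (Pam2CSK4), -0.74 (TLR2.CD86) and -1.02 (anti-CD40). With quantile normalization they were 9 (anti-CD86, median -0.26), 15 (anti-CD40.Pam2CSK4) and 0 (TLR2.CD86 against anti-CD86). Normexp gave 10 (anti-CD86), 29 (TLR2.CD86), 40 (anti-CD40), 16 (anti-CD40.Pam2CSK4) and 0 (TLR2.CD86 against anti-CD86). Without the filter on dim probes they were 0, 1, 1 and 2 in the same order and 2 for anti-CD40.Pam2CSK4 against TLR2.CD86. Ordinary standard errors gave 8 for anti-CD86 and 8 for anti-CD40.Pam2CSK4, and averaged probes 1 for Pam2CSK4 and 1 for anti-CD86. The cause of these shifts was not tested.

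Same-numbered deviations correlated at -0.11 to 0.07 wherever unstimulated or anti-CD40.Pam2CSK4 cells were involved, so no pairing by replicate number was seen with these groups. Among the 4 groups split between slides they correlated at 0.54 to 0.67. There the replicate number and the slide are the same, so pairing cannot be told apart from slide. With the replicate number as a block the counts were 1 (Pam2CSK4), 28 (anti-CD86), 53 (TLR2.CD86), 50 (anti-CD40), 15 (anti-CD40.Pam2CSK4), 29 (anti-CD40.Pam2CSK4 against TLR2.CD86) and 11 (interaction of anti-CD40 and Pam2CSK4).

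Leaving out 1 array at a time gave 0 (Pam2CSK4; medians -0.40 to -0.16), 0 (anti-CD86; -0.51 to -0.34), 1 to 5 (TLR2.CD86; -0.61 to -0.33), 1 to 43 (anti-CD40; -0.65 to -0.31), 1 (anti-CD40.Pam2CSK4; -0.17 to -0.15), 0 (TLR2.CD86 against Pam2CSK4), 1 (against anti-CD86), 2 to 5 (anti-CD40.Pam2CSK4 against TLR2.CD86) and 0 for both interactions. Of 35 results of named genes, 33 lost their call with median scaling, 29 without the filter, 8 with quantile normalization, 5 on slide 1 alone, and none with the slide or replicate block. Without either unstimulated array 25 lost it and 3 did not. The median over members minus that over all genes ranged from -0.38 to -0.03 over the alternatives and stimulations. Saturation and 2 arrays a group limit what could be read.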
